A study of Mus musculus with 4 samples.

Results

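Of the 32285 genes in the count matrices, 9 homeobox genes of the dorsal otic vesicle were followed: Dlx3, Dlx5, Dlx6, Hmx2, Hmx3, Gbx2, Msx1, Msx2 and Lmx1a. They were taken by symbol, with no measured value used, and all 9 were present in each of the 4 libraries. Homeobox genes encode transcription factors that bind DNA through a homeodomain, and in the otic vesicle, the epithelial sac that becomes the inner ear, they mark territories before any structure is visible. The dorsal and lateral wall gives rise to the semicircular canals and their sensory patches, where Hmx2, Hmx3 and the Dlx genes are needed, while the dorsomedial wall gives rise to the endolymphatic duct, for which Gbx2 is needed. WNT signals from the hindbrain and BMP signals favour dorsal identity, and the anteroventral wall makes the neuroblasts of the cochleovestibular ganglion, which switch on Neurog1.

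Single-cell RNA was measured in 2 control and 2 mutant libraries of Swiss-Webster mouse embryos at E10.5, midway through gestation and staged between 34 and 36 somites. Controls carried Pax2-Cre and Rosa26-GFPf/+. Mutants carried in addition Tbx2f/f and Tbx3f/f (cKO), so that Cre driven by Pax2 removed 2 T-box repressors in the same lineage that the GFP reporter marks, and Cre and reporter were shared by both groups. Dissected tissue around the vesicle and ganglion was sorted for GFP without DAPI. The labels name 3 control and 2 cKO embryos and say that vesicles were pooled, with no account of which embryo went into which library, so p-values measure only the spread between libraries, which may be technical.

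After filtering, 14399 cells were kept, between 3220 and 3869 per library, from total counts between 106769747 and 128205192 unique molecular identifiers (UMIs, counted RNA molecules). Clusters resembling otic epithelium by a marker list held 2145 and 1832 control and 1130 and 2021 cKO cells. In these cells the median UMI count was 31556 and 29953.5 in control and 37319.5 and 34102 in cKO, and the median mitochondrial share was 2.29% and 2.87% against 1.20% and 1.28%. Of all barcodes, 35 occurred in 2 libraries. Tbx2 stood at 92.8 and 102 CPM (UMIs per 1000000 UMIs of the sum) in otic cells of the controls, against 69.1 and 67.6 in those of the mutants, and Tbx3 at 63.3 and 60.9 against 22.6 and 17.6. Neither range overlapped, but the labels do not say whether the 3' reads lie within the removed exons, so the remaining RNA checks nothing about the deletion.

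The members include gene pairs that lie side by side. Hmx3 (chr7:131542867-131544925) and Hmx2 (chr7:131548773-131558014) are separated by 3847 bases on the plus strand of mouse build GRCm38, also called mm10. Dlx6 (chr6:6863334-6868568, plus strand) and Dlx5 (chr6:6877805-6882085, minus strand) are 9236 bases apart. The antisense gene Dlx6os1 (chr6:6820189-6871592, minus strand) covers the whole of Dlx6, and whether the counting used strand is not given in the sources used here, so reads of Dlx6 and Dlx6os1 may not be separable. The others are Dlx3 on chromosome 11 (95120119 to 95125296), Gbx2 on chromosome 1 (89927956 to 89931179), Msx1 on chromosome 5 (37820485 to 37824583), Msx2 on chromosome 13 (53466884 to 53473074) and Lmx1a on chromosome 1 (167689237 to 167848741).

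Because Hmx2 and Hmx3 were detected together and Gbx2 apart from them, their promoter windows are shown, read from RefSeq on GRCm38.p6, 5′ to 3′ on the gene's strand, running from 250 bases before to 50 after the listed start. Hmx3 is chr7:131542713-131543012 (plus), Hmx2 is chr7:131548507-131548806 (plus, the first of 2 windows) and Gbx2 is chr1:89931127-89931426 (minus). Capitals mark CTTTGA or its reverse TCAAAG, the core bound by the WNT effectors TCF and LEF, and GGCGCC, a GC-rich element that SMAD proteins of the BMP pathway can bind.
Hmx3: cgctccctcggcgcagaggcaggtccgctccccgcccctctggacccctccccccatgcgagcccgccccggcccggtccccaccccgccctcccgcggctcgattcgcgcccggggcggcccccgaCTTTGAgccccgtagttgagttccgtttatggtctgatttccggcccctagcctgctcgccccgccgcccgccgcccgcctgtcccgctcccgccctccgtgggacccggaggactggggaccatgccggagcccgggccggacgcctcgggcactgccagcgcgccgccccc
Hmx2: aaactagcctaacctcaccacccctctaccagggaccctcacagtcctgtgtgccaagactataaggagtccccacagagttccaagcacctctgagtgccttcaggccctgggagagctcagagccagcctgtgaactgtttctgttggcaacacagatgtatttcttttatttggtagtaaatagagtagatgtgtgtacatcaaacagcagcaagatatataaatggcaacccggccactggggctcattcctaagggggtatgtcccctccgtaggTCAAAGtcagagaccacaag
Gbx2: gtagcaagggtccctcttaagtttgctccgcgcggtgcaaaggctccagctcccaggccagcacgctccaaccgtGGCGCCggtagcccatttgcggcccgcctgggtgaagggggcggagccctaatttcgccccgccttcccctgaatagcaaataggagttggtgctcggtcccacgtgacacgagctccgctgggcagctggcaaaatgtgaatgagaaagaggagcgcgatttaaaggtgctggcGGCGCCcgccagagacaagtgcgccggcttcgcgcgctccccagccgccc
Among 7 windows found for 6 members, CTTTGA or TCAAAG was present in those of Hmx3 and Hmx2 printed here and in 16% of all 32851 windows. The palindrome GGCGCC was present in that of Gbx2 and in 11.9% of all windows. The T-box half-site AGGTGT, read on both strands as AGGTGT or ACACCT, was in 0 of the 7 windows and in 13.7% of all. These letters describe the windows only.

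In control otic epithelium the members had overlapping but distinct patterns over clusters, with no position measured. Cells were clustered without the 9 genes, which gave 10 otic clusters, and the levels below describe those clusters with no test. Clusters 5 and 13, led by the retinoic acid enzyme Aldh1a2, and by Oc90 and Gata2 further down their lists, held the highest Hmx2, the homeobox gene of the vestibular wall: 223 and 226 CPM in cluster 5 and 206 and 208 in cluster 13. Hmx3, its neighbour and close relative, was also highest there, at 102 and 91.0 and at 94.4 and 89.1 CPM. In cluster 16, led by Gbx2 and also by Wnt2b, Hmx2 stood at 15.7 and 24.2 CPM and Gbx2, the gene of the endolymphatic duct, at 144 and 157. Cluster 12, led by the ventral genes Otx1, Gsc and Otx2, held Gbx2 at 0.459 and 1.54 CPM and Msx2 at 0.230 and 0.129, but Lmx1a at 63.5 and 54.3. Hmx and Gbx2 maxima therefore lay in different clusters in both control libraries.

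Dlx5, Msx1 and Msx2 were not confined to the clusters with the highest Hmx2 or Gbx2. Dlx5, a homeobox gene needed for the canals, was highest in cluster 18, led by Lrrtm1 and Rspo3 among others, at 309 and 329 CPM, and was also high in cluster 16 (163 and 169) and in cluster 5 (161 and 155). Msx2, a target of BMP signals, reached 193 and 245 CPM in cluster 18 and 59.9 and 66.0 in cluster 5. Msx1, its paralog, was 120 and 138 CPM in cluster 18, 74.1 and 68.5 in cluster 5 and 2.18 and 2.96 in cluster 12. Lmx1a, a LIM homeobox gene of the non-sensory roof, lay between 17.6 and 207 CPM across the otic clusters of both control libraries and was highest in cluster 18 (189 and 207). Dlx3, at most 5.10 CPM in any otic cluster of the controls, was the faintest member.

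The cKO cells lay elsewhere. Clusters 0 and 1, led by Kcns3 and Pcolce2 and by Gm11444 and Spp1, held 48.1% and 39.7% of cKO otic cells against 0.151% and 0.126% of control ones, whereas clusters 5, 6, 11, 12, 13 and 16 together were mostly control cells. Clusters 4 and 18 were the only otic clusters with at least 20 cells in all 4 libraries. In clusters 0 and 1 Hmx2 and Gbx2 lay between their control extremes. Hmx2 stood at 52.6 and 47.6 CPM in cluster 0 and at 53.7 and 46.4 in cluster 1, and Gbx2 at 8.51 and 17.97 and at 21.7 and 28.0. Dlx5 stood at 29.0 and 37.0 CPM in cluster 0, close to its lowest control means (33.31 and 34.98 in cluster 12, 43.0 and 30.8 in cluster 11), and at 60.7 and 71.9 in cluster 1. Neither of these clusters reached the Hmx2 level of control clusters 5 and 13 or the Gbx2 level of control cluster 16.

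**Figure D1:**
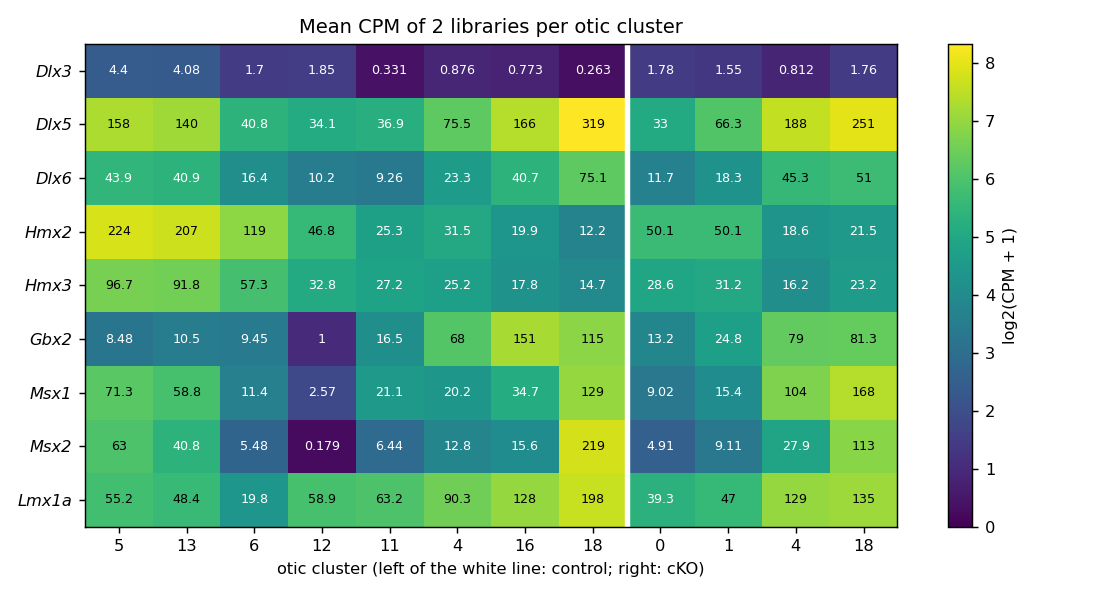
Mean CPM over the 2 libraries of a genotype for each member (rows) in each otic cluster (columns), with control clusters left and cKO clusters right of the white line. Colour is log2(CPM + 1) and the printed number is the mean CPM. The Hmx2 and Gbx2 maxima of control sit in different columns, and cKO clusters 0 and 1 hold intermediate values of both.

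Over all otic cells, 8 of the 9 members were lower in cKO and Dlx3 was not called, by edgeR's quasi-likelihood test with Benjamini-Hochberg adjustment over all genes at 0.05. Of the 15361 genes tested, 40.1% were called in either direction and 19.3% were called lower. The median log2 difference of the 9 members was -0.48, beside -0.02 for all genes tested. A lower sum over otic cells can come from fewer cells of a territory or from less RNA per cell, and these cannot be told apart.

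Msx2 and Hmx2 had the largest falls. The control libraries held Msx2 at 25.6 and 28.4 CPM and the cKO libraries at 12.5 and 13.8, a log2 difference of -0.87 (SE 0.08, adjusted p = 2.29e-04). For Hmx2 the controls gave 88.2 and 91.7 CPM and the mutants 50.5 and 45.8, a log2 difference of -0.74 (SE 0.07, adjusted p = 2.74e-04). Both genes were lower in each cKO library than in each control library. Hmx3 went from 47.8 and 46.5 CPM to 30.4 and 27.6 (log2 difference -0.54, SE 0.08, adjusted p = 0.00144), again without overlap.

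Dlx5 and Dlx6, 2 genes that share enhancers, fell by similar amounts. Dlx5 went from 98.9 and 96.1 CPM to 54.8 and 70.0 (log2 difference -0.48, SE 0.10, adjusted p = 0.00777). Dlx6 went from 28.4 and 26.6 CPM to 16.9 and 18.6 (log2 difference -0.47, SE 0.08, adjusted p = 0.00342). In both genes all control values lay above all cKO values. Dlx3, a gene of the early placode and surface ectoderm, had control values of 1.66 and 2.11 CPM and cKO values of 1.87 and 1.42, from 81 to 120 UMIs per library, and its groups overlapped (log2 difference -0.04, SE 0.22, adjusted p = 0.899).

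The calls for Gbx2, Lmx1a and Msx1 were less firm. Gbx2 went from 39.97 and 40.95 CPM to 18.1 and 29.1, so the cKO libraries differed more from each other than the controls did (log2 difference -0.60, SE 0.17, adjusted p = 0.0229). Lmx1a stood at 66.9 and 75.7 against 48.2 and 52.9 CPM (log2 difference -0.33, SE 0.08, adjusted p = 0.0103). Msx1 stood at 35.4 and 32.1 against 19.7 and 25.2 CPM (log2 difference -0.42, SE 0.11, adjusted p = 0.0192). DESeq2 gave Gbx2 an adjusted p of 0.178, and without control 2 it was 0.0502. Lmx1a missed the threshold without cKO 1 (adjusted p = 0.0569), and Msx1 missed it without control 1 (0.0794) or without cKO 1 (0.0538). Where a clustering at resolution 2 or a stricter cell filter left some otic clusters unnamed, Gbx2 was 0.04 and 0.18 on the log2 scale and Lmx1a -0.06 and -0.05, none called. With those clusters kept, a setting added after seeing the data, Gbx2 was -0.80 and -0.57 and Lmx1a -0.40 and -0.30, all called. Without doublet removal, where part of cluster 1 (533 cells) was left out, Gbx2 (-0.37), Lmx1a (-0.19) and Msx1 (-0.30) lost their calls, and with the clusters kept they had them (-0.59, -0.33 and -0.41).

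**Figure D2:**
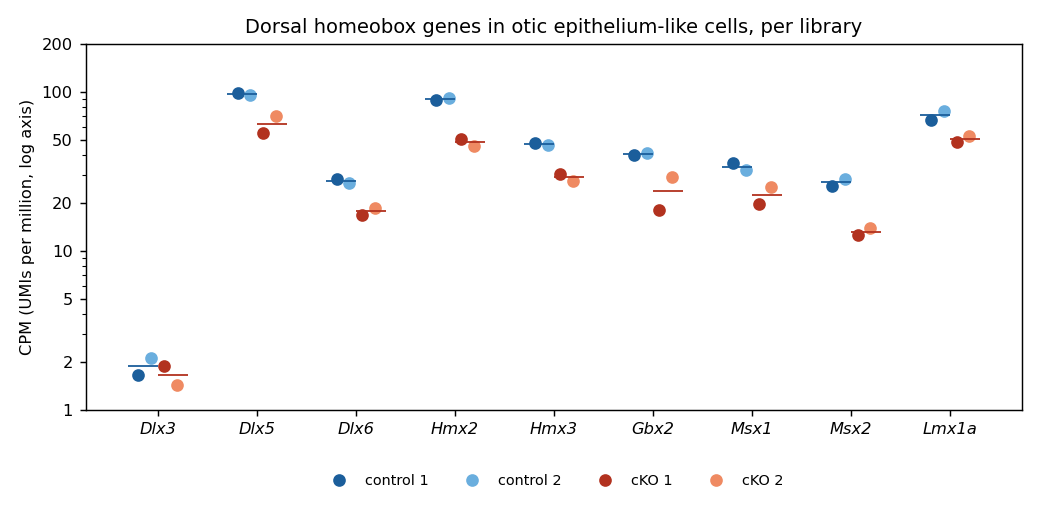
Level of each member in otic epithelium-like cells in CPM on a log axis, 1 point per library (blue, control; red, cKO), with short lines at the mean of 2 libraries. For every member but Dlx3 both cKO points lie below both control points, as for Msx2 at 12.5 and 13.8 against 25.6 and 28.4. This order was not counted over all genes, of which 19.3% were called lower.

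Markers of other cell types moved in the same otic sums. The mesenchyme list summed to 58.7 and 46.9 CPM in the controls, below the 149 and 116 of cKO, with 1 of its 7 genes at 10 CPM or more and 0 of them at 0 in each library. The neural crest and glia list summed to 138 and 151 against 57.1 and 66.0 CPM, with 3 of 7 genes at 10 CPM or more in control and 2 of 7 in cKO, and 1 gene at 0 in control 1 and in cKO 2. The roof plate list, from the class with the highest Msx1, summed to 0.530 and 0.720 against 3.12 and 3.40 CPM, with 0 of its 5 genes at 10 CPM or more and 1 and 2 of them at 0 in cKO. The neural tube progenitor list summed to 136 and 144 against 94.1 and 115 CPM, with 1 of 8 genes at 10 CPM or more in each library. Their part in the differences of the members was not tested.

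Within the 2 clusters that both genotypes shared, the members did not all fall. The genotypes can differ in their mix of cells within a cluster as well, and the part of this was not tested. In cluster 4, led by Rorb and Cntn5 and also by Gbx2 and Wnt7b, with 424 and 299 control and 40 and 90 cKO cells, 5 of 8 members tested were higher in cKO, where 7.64% of all genes were called higher, and 0 were lower, beside 6.45% of genes. Msx1 went from 22.2 and 18.2 CPM to 110 and 97.3 (log2 difference 2.35, SE 0.13, adjusted p = 2.91e-08), and the groups were far apart. Dlx5 went from 76.0 and 75.1 to 170 and 206 CPM (1.36, SE 0.11, adjusted p = 9.20e-07). Dlx6 (1.03, adjusted p = 3.01e-04), Msx2 (1.14, adjusted p = 4.36e-04) and Lmx1a (0.53, adjusted p = 0.00189) were also higher, and Dlx6 missed the threshold without cKO 2 (0.76). Hmx2 was 28.3 and 34.8 against 11.8 and 25.4 CPM, a log2 difference of -0.55 that did not pass (adjusted p = 0.117). It passed at -0.72 without control 1, at -1.41 without cKO 2 and at -0.65 with a replicate block. Hmx3 did not pass either (-0.54, adjusted p = 0.132) but did without control 1 (-0.80) and with the block (-0.64). Gbx2 was 68.3 and 67.8 against 63.4 and 94.6 CPM and was not called (0.31, adjusted p = 0.145). It was called higher without cKO 1, at 0.51.

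In cluster 18, with 75 and 88 control and 48 and 119 cKO cells, 2 of 8 members were called higher and 4 lower, beside 12.8% and 11% of all genes. Msx2 fell from 193 and 245 CPM to 121 and 105 (log2 difference -0.89, SE 0.13, adjusted p = 1.21e-04), with no overlap. Lmx1a fell from 189 and 207 to 131 and 139 (-0.46, adjusted p = 0.00694), Dlx6 by 0.48 (adjusted p = 0.0227) and Gbx2 by 0.40 on the log2 scale (adjusted p = 0.0473). Hmx2 rose by 1.00 (adjusted p = 0.0282) and Msx1 by 0.47 (adjusted p = 0.0100). Only Msx2 kept its call without each library in turn. Dlx6 lost it without control 1 (-0.41) or cKO 2 (-0.42), Gbx2 without control 2 (-0.23) or cKO 1 (-0.28) and with another scaling (RLE, -0.40), Lmx1a without control 2 (-0.37), Hmx2 without control 2 (0.47) or cKO 2 (0.69), and Msx1 without control 1 (0.38) or cKO 2 (0.37). Dlx5 (-0.26) and Hmx3 (0.76) were not called, with adjusted p of 0.0778 and 0.153, and Hmx3 was called at 2.05 without control 1 and at 1.00 without cKO 2.

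Whether the domains of these genes keep apart was asked in single otic cells. Each cell was thinned to 10000 UMIs and called positive for a gene from 1 UMI, which left 2107 and 1774 control and 1085 and 1966 cKO cells. Cells held 2.37 and 2.35 of the 9 members on average in control and 1.66 and 1.81 in cKO. Leukocytes of the same libraries, which should hold none, averaged at most 0.05 after the same thinning. Their median depths before thinning were 39218.5 to 51477 UMIs. Cells with 5 members or more were 12.4% and 11.8% of control and 4.42% and 6.15% of cKO otic cells. For each splitting gene, UMIs of positive and negative cells were summed per library and compared, with the library as a block, and the interaction asked whether a member's enrichment in positive cells differed between genotypes. Of 90 such interactions over 11 splits, 21 were positive and 8 negative, and without control 2 the negative ones were 13. Each pair of members was seen from both sides, so these are not independent. In the splits that called a member, between 0.856% and 3.14% of all genes were called positive where a positive member was. Between 0.548% and 2.81% were called negative where a negative member was.

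Gbx2 and the Hmx genes were detected apart in both genotypes. Of Gbx2-positive cells, 20.3% (95% Wilson interval 16.6 to 24.5) and 17.8% (14.1 to 22.4) of control cells had Hmx2, against 46.3% and 44.4% of Gbx2-negative cells. In cKO the shares were 6.37% (3.50 to 11.3) and 12.7% (9.80 to 16.3), against 32% and 29.8%. In leukocytes Hmx2 was found in at most 2.50% of cells of a library and Gbx2 in 0 of 40 to 53 cells. All 4 libraries therefore had fewer Hmx2 cells among Gbx2-positive than among Gbx2-negative cells. Such intervals cover counting error only.

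By level, Hmx2 was lower in Gbx2-positive cells by a log2 difference of -1.46 (SE 0.07, adjusted p = 3.53e-13) in control and -1.57 (SE 0.09, adjusted p = 6.97e-11) in cKO, and the interaction was -0.11 (SE 0.13, adjusted p = 0.720). Hmx3 gave -0.99 and -1.03, with an interaction of -0.05 (SE 0.11, adjusted p = 0.887). A loss of separation would make the interaction positive. Left-out libraries moved the Hmx2 interaction between -0.57 without cKO 2, which passed (adjusted p = 0.0271), and 0.09 without cKO 1, which did not. Seen from the Hmx2 split, Gbx2 was -1.5 (SE 0.09) in control and -1.60 (SE 0.13) in cKO, with an interaction of -0.10 (adjusted p = 0.817), which was -0.93 and called without cKO 2. The log2 odds ratios of joint detection of Hmx2 and Gbx2, a description, were -1.75 and -1.87 in control and -2.73 and -1.54 in cKO. Within cKO clusters 0 and 1 they were -2.74 and -1.61 and -2.79 and -1.31. The odds ratios were thus below 0 in both of the main cKO clusters as well.

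The Hmx neighbours stayed together. Among Hmx2-positive cells 54.1% and 54.0% of control and 38.8% and 41.3% of cKO cells had Hmx3, against 17.2% and 18.4% and 15.6% and 14.6% of Hmx2-negative cells. Hmx3 was enriched in Hmx2-positive cells by 2.00 (SE 0.04) in control and 1.67 (SE 0.05) in cKO on the log2 scale. The interaction of -0.33 passed (adjusted p = 0.0110), but it did not when 2 UMIs were required (-0.15) or cells were thinned to 5000 UMIs (-0.17).

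The association of Msx1 with Hmx2 and Gbx2 differed between genotypes. In control it was enriched by 0.60 (SE 0.06) in Hmx2-positive and by 0.40 (SE 0.06) in Gbx2-positive cells. In cKO it was lower in Hmx2-positive cells, at -0.43 (SE 0.09), and higher in Gbx2-positive cells, at 1.86 (SE 0.07). The interactions were -1.04 (SE 0.11, adjusted p = 2.72e-05) in the Hmx2 split and 1.46 (SE 0.09, adjusted p = 9.91e-10) in the Gbx2 split, and both kept their calls under each alternative run. The otic cells of the cKO libraries held 855 and 1807 Msx1 UMIs. Cluster 0, with 48.1% of cKO otic cells, held 190 and 373 of them, and cluster 1, with 39.7%, held 233 and 434. The part of the mix of clusters in these and the later splits was not tested. In the Hmx3 split Msx1 was 0.15 in control and -0.24 in cKO, neither called (adjusted p = 0.438 and 0.295), nor was the interaction of -0.39 (adjusted p = 0.293), which was called without control 2 (-0.68). The Gbx2 split called 1 of 8 members in its interaction, positive, beside 2.33% of all genes, and the Hmx2 split called 4 of 8, all negative, with 2.81% of genes called negative. The other calls of the Hmx2 split, Dlx5 (-0.36), Dlx6 (-0.38) and Hmx3, were lost with 2 UMIs or 5000 UMIs per cell, and Dlx6 also without control 1 (-0.35) or cKO 2 (-0.34).

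In cell shares, Msx1 was less frequent over all cKO otic cells, and in each library it was more frequent in cells with Gbx2 than without. Among Gbx2-negative cells Msx1 was found in 18.7% and 15.6% of control and 9.48% and 10.2% of cKO cells. Among Gbx2-positive cells it was found in 28.6% (24.4 to 33.25) and 29.2% (24.6 to 34.4) of control and 27.4% (21.0 to 34.8) and 32.4% (28.1 to 37.1) of cKO cells. The share was therefore lower in both cKO libraries in cells without Gbx2, and the groups overlapped in cells with it. The difference in shares itself was not tested. Among Hmx2-positive cells it was 23.6% and 19.7% in control and 10.4% and 12.6% in cKO, and among Hmx2-negative cells 18.4% and 17.1% against 12.7% and 15.7%. The Hmx2-positive share was thus above the negative one in both controls and below it in both cKO libraries. Leukocytes had Msx1 in 0 of 40 to 53 cells of each library, which allows a share of up to 7.5% in the smallest.

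**Figure D3:**
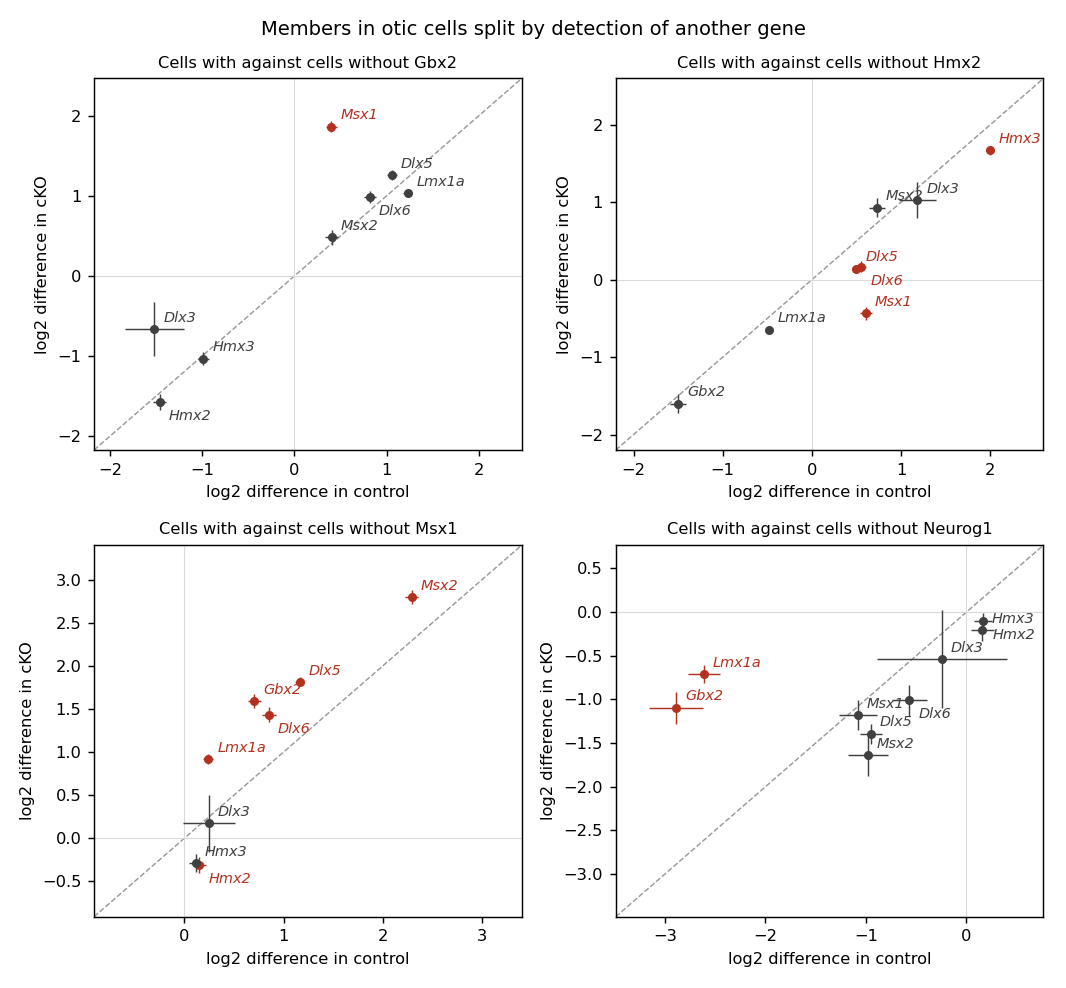
Log2 difference of each member between otic cells with and without the gene named above each panel, in control (horizontal axis) and cKO (vertical axis), with standard errors from the fit over 8 sums. The dashed line marks equal differences and red marks interactions called at 0.05. Hmx2 and Hmx3 lie close to the line in the Gbx2 panel, while Msx1 lies above it at 0.40 and 1.86.

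In cells split by Msx1 itself, 5 members had a positive and 1 a negative interaction of 8 tested, beside 2.86% and 1.76% of all genes. Gbx2 was enriched in Msx1-positive cells by 0.71 (SE 0.06) in control and 1.59 (SE 0.08) in cKO, and Lmx1a by 0.24 (SE 0.05) and 0.92 (SE 0.06). Dlx5 (interaction 0.65), Dlx6 (0.58) and Msx2 (0.51) were also more enriched in cKO, while Hmx2 went from 0.15 to -0.31 (interaction -0.46, adjusted p = 0.00463). Dlx6 lost its call without cKO 1 (0.31) and Hmx2 without control 1 (-0.15), while the others named kept theirs. Cells with Msx1 were 20.6% and 18.1% of control and 12.1% and 14.9% of cKO otic cells. These shares were lower in both cKO libraries.

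Lmx1a gave the same picture with Msx1. Its split called 2 of 8 members positive, beside 0.856% of all genes: Msx1, at 0.02 (SE 0.07) in control and 1.14 (SE 0.08) in cKO (interaction adjusted p = 8.77e-07), and Dlx5, at 0.45 and 0.91. Lmx1a and Gbx2 were detected together in both genotypes. Lmx1a was in 66.1% and 71.1% of Gbx2-positive control cells and 48.4% and 60.2% of Gbx2-positive cKO cells, against 31.2% to 39.5% of Gbx2-negative cells in the 4 libraries. The interaction of Lmx1a in the Gbx2 split was -0.19 (SE 0.07, adjusted p = 0.140).

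Splits by the Dlx genes and Msx2 gave smaller shifts. In the Dlx5 split 3 members were positive and 1 negative of 8 (3.14% and 2.20% of all genes), and Msx1, at 0.56, kept its call under each alternative. Msx2 was enriched in Dlx5-positive cells by 2.66 (SE 0.07) in control and 3.30 (SE 0.10) in cKO, the largest enrichment of any pair of members, but its interaction (0.65) was lost without control 1 (0.43) or cKO 2 (0.48). Hmx2 was enriched by 0.72 and 0.34, an interaction of -0.37 that was lost with 2 UMIs (-0.16), and Lmx1a (0.21) was lost without control 2, cKO 1 or cKO 2. In the Dlx6 split 3 were positive and 1 negative (1.07% and 0.548% of all genes), and in the Msx2 split 3 were positive (1.53%). In the Dlx6 split Dlx5 (0.34), Gbx2 (0.42) and Hmx2 (-0.45) were lost with 2 UMIs or 5000 UMIs and Msx1 (0.46) with 2 UMIs, and Gbx2, Hmx2 and Msx1 also without cKO 2 and Gbx2 without cKO 1. In the Msx2 split Dlx5 (0.38) and Msx1 (0.54) were lost without control 1, Msx1 also without cKO 2, and Lmx1a (0.36) without each library in turn. In the Hmx3 and Dlx3 splits edgeR called 0 of 8 interactions, beside 1.4% and 0.272% of all genes, and 3 and 1 had an unadjusted p under 0.05. The Dlx3 split rested on 20 to 43 positive cells per library.

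**Figure D4:**
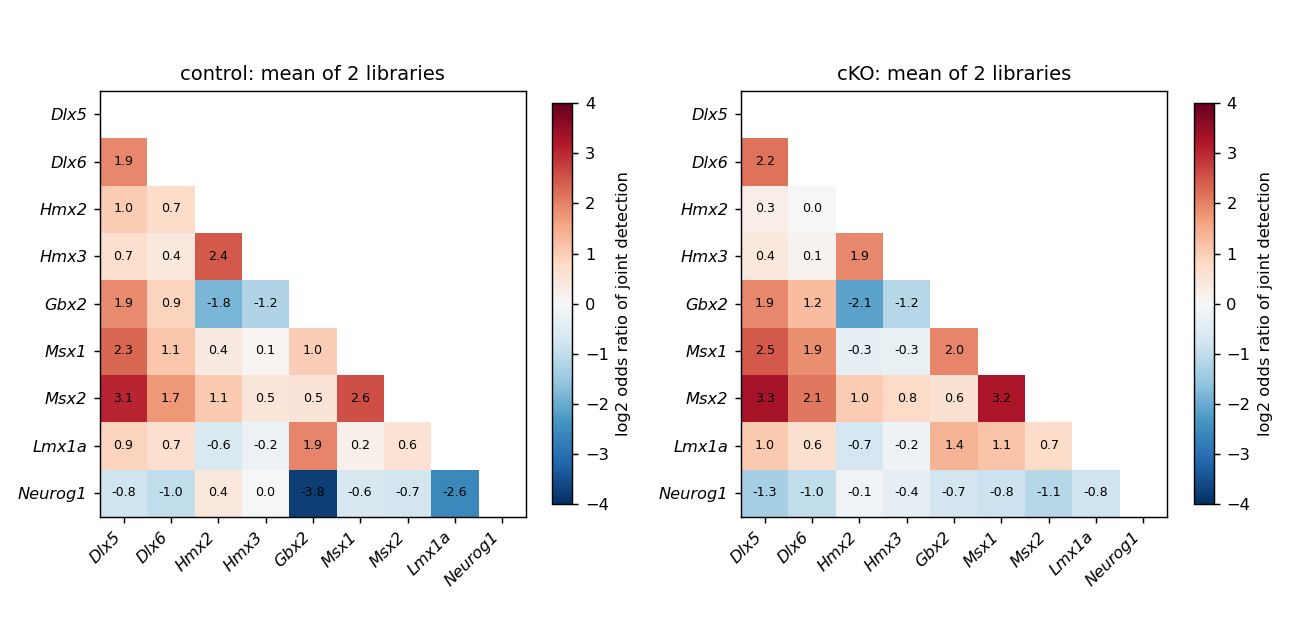
Log2 odds ratio of joint detection in otic cells thinned to 10000 UMIs, mean of 2 libraries, for each pair of 8 members and Neurog1, control left and cKO right (red, found together; blue, found apart). Hmx2 with Gbx2 is blue in both, Gbx2 with Msx1 is redder in cKO, and Gbx2 with Neurog1 is dark blue in control and pale in cKO.

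Among otic cells with Neurog1 RNA, Gbx2 and Lmx1a were less depleted in cKO than in control. Cluster 19, led by Neurog1, had 7 of 12 otic and 10 of 10 placodal sensory neuron markers and was named with the neurons. Its 68 and 62 control and 82 and 113 cKO cells are therefore not among these otic cells. Neurog1, the proneural gene of otic neuroblasts, was found in 84 and 50 control and 66 and 116 cKO otic cells after thinning, or 3.99% and 2.82% against 6.08% and 5.9%. At the same thinned depth it was found in 0 of 109, 0 of 144, 1 of 248 and 0 of 80 mesenchyme cells and in at most 1.49% of surface ectoderm cells of a library. Detection in 1 cell does not show that the cell is a neuroblast, and the part of free Neurog1 RNA was not tested. The cells also differed between genotypes: 63 of the 84 and 44 of the 50 control cells lay in cluster 6, while 42 and 71 of the cKO cells lay in cluster 0 and 23 and 37 in cluster 1. Sox2 was enriched in Neurog1-positive cells by 1.49 (SE 0.07) in control but stood at -0.12 (SE 0.08) in cKO (interaction -1.61, adjusted p = 3.18e-16), so the Neurog1-positive cells of the genotypes were not alike. Among these cells, Gbx2 was found in 2 of 84 (2.38%, interval 0.655 to 8.27) and 0 of 50 control cells, which allows up to 6%, and in 5 of 66 (7.58%, 3.28 to 16.5) and 18 of 116 (15.5%, 10.0 to 23.2) cKO cells. Lmx1a was found in 8.33% (4.095 to 16.2) and 14.0% (6.95 to 26.2) of control and 22.7% (14.3 to 34.2) and 26.7% (19.5 to 35.4) of cKO Neurog1 cells. Both cKO libraries lay above both controls for each gene. The intervals of control 1 and cKO 1 overlapped for both.

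Lmx1a was lower in Neurog1-positive than in Neurog1-negative cells by a log2 difference of -2.61 (SE 0.16) in control and -0.71 (SE 0.10) in cKO, with an interaction of 1.90 (SE 0.21, adjusted p = 4.93e-09) that kept its call under each alternative. Gbx2 was lower by -2.89 (SE 0.27) in control and -1.09 (SE 0.18) in cKO, with an interaction of 1.80 (SE 0.39, adjusted p = 0.00232) that was lost without cKO 2 (1.20, adjusted p = 0.458). These were 2 of 9 members, beside 0.939% of all genes called positive. Hmx2 did not avoid Neurog1 cells in either genotype, at 0.17 (SE 0.09) and -0.10 (SE 0.09), and Hmx3 stood at 0.16 and -0.21, with no interaction called (adjusted p = 0.488 and 0.415). Dlx5, Dlx6, Msx1 and Msx2 were lower in Neurog1 cells of both genotypes, from -0.57 to -1.64, and their interactions were not called. With Gbx2 and Lmx1a that made 6 of 9 lower in each genotype, beside 3.59% of all genes in control and 1.14% in cKO. Depth differed: Neurog1-positive cells had medians of 27761 and 27924.5 UMIs before thinning in control and 40931.5 and 36271.5 in cKO, against 31916 and 30455.5 and 37772 and 34393 in negative cells. Its part in the interactions was not tested.

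**Figure D5:**
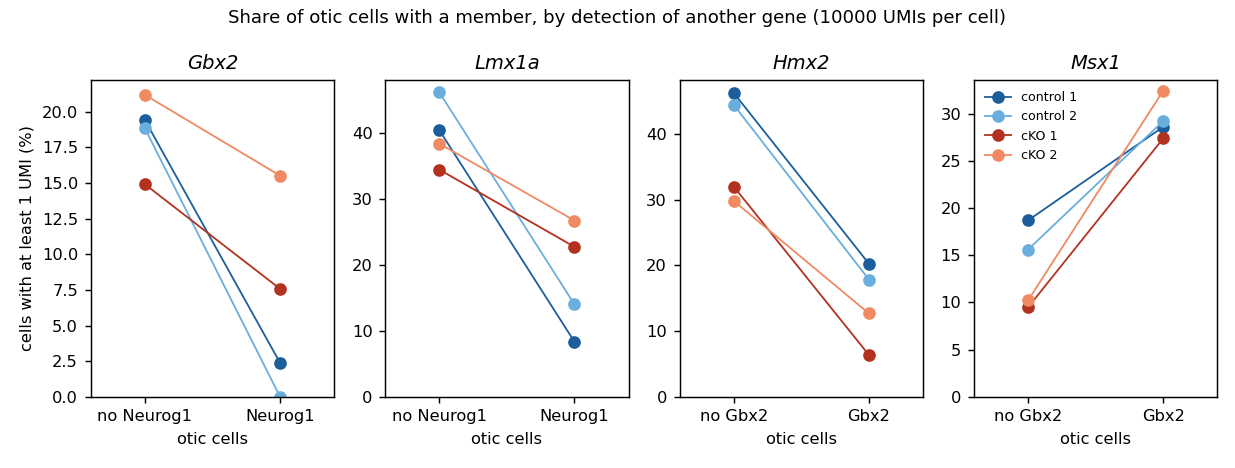
Percent of otic cells with at least 1 UMI of Gbx2 or Lmx1a by detection of Neurog1 (left 2 panels) and of Hmx2 or Msx1 by detection of Gbx2 (right 2 panels), after thinning to 10000 UMIs per cell, 1 line per library (blue, control; red, cKO). Gbx2 in Neurog1 cells is 2.38% and 0% in control and 7.58% and 15.5% in cKO, while Hmx2 falls with Gbx2 in all 4 libraries.

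Cells with Sox2, a gene of prosensory and neurogenic progenitors, were 50.7% and 42.0% of control and 54.8% and 54.1% of cKO otic cells. In control all 9 members were lower in Sox2-positive cells, and 6 of 9 were in cKO, beside 11.7% and 6.73% of all genes. Neurog1 itself was 3.78 (SE 0.14) in Sox2-positive control cells and -0.25 (SE 0.08) in cKO ones (interaction -4.02, adjusted p = 9.40e-16). Of the interactions 2 were positive, beside 1.64% of genes, and 1 negative, beside 2.36%. Gbx2 was -0.98 in control and -0.56 in cKO (interaction 0.42, SE 0.08, adjusted p = 0.00174), and Msx1 was -0.36 and -1.45 (interaction -1.09, SE 0.09, adjusted p = 1.81e-09). Lmx1a was called at 0.23 but not without control 1 or without cKO 2 (0.18 and 0.21). Otx2, the ventral gene, was left in 9 and 17 cKO cells, too few for a split by Otx2. As a response in the other splits, Otx2 was -1.79 (SE 0.08) in Hmx2-positive control cells and 1.79 (SE 0.25) in cKO ones (interaction 3.57, adjusted p = 1.59e-06), and -0.61 and 2.23 in the Hmx3 split (interaction 2.84, adjusted p = 3.31e-04). Both interactions were called under each alternative run, and the cKO values rest on 52 and 65 Otx2 UMIs in otic cells. Otx2 was not particular to the Hmx splits. Its interaction was 3.81 in the Msx1 split (-3.30 in control, 0.51 in cKO, adjusted p = 8.47e-07). In the Neurog1 split it was 4.03 (-3.39 and 0.63, adjusted p = 8.75e-04). The Gbx2, Lmx1a, Dlx3, Dlx5, Dlx6, Msx2 and Sox2 splits did not call it. In control, 0 of 156 and 2 of 157 Otx2-positive cells had Gbx2.

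Outside the otic epithelium the members had their own patterns. Roof plate-like cells, the dorsal midline of the neural tube, held the highest Msx1 of any class, at 523 and 486 CPM in the controls and 633 in cKO 1, with Lmx1a at 66.5, 75.0 and 54.3 (cKO 2 had 17 such cells and was left out). Surface ectoderm-like cells held Msx2 at 119 and 74.0 CPM in the controls, a range that held the cKO values of 81.8 and 105, and the highest mean Dlx3 of any class, at 7.02 and 8.32 against 5.13 and 3.29. Hmx2 (13.9 and 14.3 against 20.4 and 23.7) and Gbx2 (24.8 and 27.1 against 21.7 and 23.0) were present in neural tube neuron-like cells. Dlx5 and Dlx6 were at or under 1 CPM in neural tube neurons. Leukocyte-like cells held no member above 1.00 CPM in any library, which is read as background.

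In tests between genotypes, 5 of 27 member tests in the other classes were called, all higher in cKO, over the 6 classes in which any member passed the low-count filter. In epibranchial sensory neuron-like cells Msx1 rose from 8.67 and 4.34 to 22.8 and 21.5 CPM (log2 difference 1.84, SE 0.25, adjusted p = 0.00401), without overlap. Msx2 was called there as well (1.36, adjusted p = 0.0462), from 12 to 47 UMIs per library, but not without control 1, control 2 or cKO 2. These 2 of 4 tested stand beside 12% of all genes. The epibranchial class pooled cluster 9, led by Neurod4, and cluster 10, led by Prph. Cluster 9 held 110 and 116 control and 163 and 210 cKO cells, and cluster 10 held 186 and 165 against 57 and 143. The part of this mix was not tested. In placodal sensory neuron-like cells 2 of 7 were higher, beside 18.1%: Dlx6, from 2.12 and 1.76 to 4.51 and 4.39 CPM (1.31, SE 0.25, adjusted p = 0.00543), and Lmx1a, from 1.59 and 1.45 to 2.53 and 3.50 (1.10, SE 0.30, adjusted p = 0.0217), which missed the threshold without control 2 (1.04) or cKO 2 (0.86). Gbx2, at 1.41 and 0.518 against 1.08 and 3.33 CPM, was not called (1.34, adjusted p = 0.109), but was without control 1 (2.20) or cKO 1 (1.92). The placodal class pooled clusters 2, 7 and 19, and their shares differed between genotypes. Cluster 7 held 221 and 368 control but 25 and 18 cKO cells, and cluster 19 held 68 and 62 against 82 and 113. In cluster 2 alone Lmx1a was lower in both cKO libraries, at 1.66 and 1.64 against 1.31 and 1.19 CPM. Dlx6 was higher there in both, at 2.93 and 2.23 against 4.06 and 4.18 CPM. The part of this mix in the class differences was not tested. In mesenchyme-like cells Dlx5 was 10.2 and 4.40 against 38.3 and 14.8 CPM (2.16, SE 0.43, adjusted p = 0.0191), 1 of 4 tested beside 2.92%. It was not called without control 2 (1.63) or cKO 1 (1.18). Dlx6 there was 5.22 and 1.16 against 19.4 and 4.93 CPM, with an overlap between groups, and missed the threshold (2.31, adjusted p = 0.0524), but passed with RLE scaling (2.31), without control 1 (3.74), without cKO 2 (2.81) and with a replicate block (2.05).

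In neural tube neurons, neural tube progenitors and surface ectoderm edgeR called 0 of 4, 0 of 3 and 0 of 5 members, where 0.26%, 0.957% and 5.59% of all genes were called. At an unadjusted p under 0.05 these were 2, 0 and 0. Msx1 in surface ectoderm was 94.7 and 20.3 CPM against 31.9 and 62.7, so the 2 controls enclosed both cKO values (-0.53, adjusted p = 0.459). It turned to 1.24 without control 1, and was called lower without control 2 (-0.95) and with a replicate block (-0.46). Msx1 in neural tube neurons was 16.8 and 19.8 against 21.7 and 111 CPM, with cKO 2 far above the rest.

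The otic differences were compared with those of the neuron lineage directly. In the interaction of class and genotype, 5 of 9 members had a lower cKO to control difference in otic cells than in placodal sensory neurons, beside 7.65% of all genes: Gbx2 (-1.996, SE 0.43, adjusted p = 0.0114), Dlx6 (-1.81, SE 0.20, adjusted p = 2.94e-04), Lmx1a (-1.47, SE 0.23, adjusted p = 0.00215), Dlx5 (-1.23, SE 0.21, adjusted p = 0.00324) and Hmx2 (-1.23, SE 0.28, adjusted p = 0.0143). Gbx2 (-1.35) and Hmx2 (-1.10) lost the call without cKO 2. In the summed neurons the differences were 1.34 for Gbx2, 1.31 for Dlx6, 1.10 for Lmx1a, 0.72 for Dlx5 and 0.43 for Hmx2. Dlx6 and Lmx1a were called, and none of the 5 was lower in cKO in that sum. Hmx2 there was called at 1.04 without control 1. The neuron levels are low: Gbx2 rested on 10 to 41 UMIs per library there. Against surface ectoderm 1 of 9 was called, beside 2.48%: Msx2, at -0.80 (SE 0.16, adjusted p = 0.00226).

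Relatives and pathway genes in the otic sums were read from 5 lists. Of the paralogs of the members, 3 of 5 tested were lower and 0 higher (median -1.64). Dlx2, at 14.4 and 13.5 CPM in control, was 4.34 and 2.87 in cKO (-1.82, SE 0.17, adjusted p = 2.23e-04). Lmx1b went from 0.865 and 1.07 to 0.162 and 0.209 CPM (-2.17, SE 0.33, adjusted p = 0.00171). Of 11 BMP ligands and targets 9 were lower and 1, Bmp2, higher (median -0.60). The ligand Bmp4 was 43.5 and 43.6 against 31.0 and 29.6 CPM (-0.36, adjusted p = 0.00463). The largest differences were those of Bmp5 (-1.39) and the feedback inhibitor Smad7 (-1.10). Of 11 WNT targets 3 were higher and 2 lower (median -0.02), led by Sp5 (1.23), itself a leading gene of cKO cluster 0, and the WNT antagonist Notum (-1.16). All genes tested gave 20.8% higher and 19.3% lower.

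Of 11 canal and endolymphatic duct genes 2 were higher and 4 lower (median -0.29). Wnt2b, the dorsal WNT ligand, went from 1.34 and 2.28 CPM to 0.139 and 0.432 (-2.36, SE 0.43, adjusted p = 0.00375). Foxi1, the regulator of the duct's ion-transporting cells, had 33 UMIs in each control library and 1 and 0 in cKO. Ntn1, which guides canal fusion, went from 0.404 and 0.667 to 1.92 and 1.39 CPM (1.80, SE 0.30, adjusted p = 0.00276). Of 14 ventral and prosensory genes 3 were higher and 7 lower (median -0.51). Gsc (-6.74) and Otx2 (-4.04) had the largest differences, and Otx2 was 16.2 and 21.9 against 1.20 and 0.906 CPM. Neurog1 was 8.95 and 5.21 against 17.0 and 15.1 CPM (1.33, SE 0.21, adjusted p = 0.00222), and it was not called under the stricter cell filter (0.21). Sox2 was 133 and 103 against 105 and 107 CPM and was not called (adjusted p = 0.981), but was without control 1 (0.22).

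The gene most like each member over 23 clusters of control cells, by Pearson correlation of log2(CPM + 1) as a description with shared libraries and depth, was often its neighbour or paralog. Dlx5 and Dlx6 were each other's closest (r = 0.975), and Dlx6os1 (0.929) and Slc26a9 (0.928) came next for Dlx5, BC006965 (0.933) and Gal3st1 (0.923) for Dlx6. Hmx2 and Hmx3 were each other's closest (0.927), followed by Arg2 (0.838) and Gprin3 (0.821) for Hmx2, and by Gprin3 (0.919) and Arg2 (0.914) for Hmx3. Msx1 was most like Wdr35 (0.880), Shroom3 (0.877) and Msx2 (0.859), and Msx2 most like Tcea3 (0.860), Msx1 (0.859) and Col4a5 (0.844). Gbx2 was most like D130058E05Rik (0.888), Gm50405 (0.863) and Napepld (0.8). Lmx1a was most like 4930523C07Rik (0.923), Plekhb1 (0.921) and Crb3 (0.915), and Dlx3 most like Lypd6b (0.863), Exoc3l4 (0.852) and Cldn11 (0.847).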

How the data were processed

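Single-cell libraries were 10x Genomics Chromium 3' libraries, per the labels' protocols. The deposited matrices hold raw UMI counts per gene and called barcode, with no normalization or annotation. Cell Ranger 6.0.1 wrote them, per the file headers. Cell Ranger 3.1.0, FastQC 0.11.4, Seurat 4.1.0 and mm10 are listed in the submitters' processing notes.

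Cells with at least 1000 genes and at most 10% mitochondrial UMIs were kept, and the top Scrublet scores were removed at 0.8% per 1000 barcodes, since its own threshold called at most 5 cells per library. Clustering used scanpy 1.11.5 (2000 variable genes without the members, 30 components, 20 neighbours) and leidenalg 0.10.2 at resolution 1, giving 27 clusters. A class name needed 3 markers and 40% of its list, with every counted marker reaching 10 CPM and 2 times its median over clusters. The placodal sensory neuron name was set aside where the epibranchial or neural tube progenitor list also passed. Of the names left, that with the most counted markers was taken. A cluster whose 10 leading genes held more markers of another class, or with low UMI counts, stayed unnamed (4 clusters), and names mean resemblance only.

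Counts were summed per library and class (20 cells or more in each library) or per library and detection state, and tested in edgeR 4.0.16 (filterByExpr, TMM, quasi-likelihood, Benjamini-Hochberg over all genes, 0.05). CPM are UMIs per 1000000 UMIs of the sum. The planned minimum of 50 cells left 0 otic clusters, so 20 was used. Shares carry 95% Wilson intervals, and a count of 0 allows 3 counts. Odds ratios had 0.5 added to each count. With 2 libraries a group the smallest exact permutation p is 0.333, so no such test was used. The fits were tested on simulated data. Alternatives were other size factors, DESeq2, other filters, resolutions and thinning, a replicate block and each library left out. Members, lists and tests were chosen with earlier results of these data known. All 9 members are named, the 2 genes of each list with the largest absolute differences, 6 fixed genes and the 3 most similar genes per member.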

Additional observations from a re-analysis of the deposited data

Results flagged for a closer look

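An interaction test in edgeR asked whether the genotype difference of a member differed between cell classes. Against placodal sensory neurons it called 5 of 9 members, all lower in otic cells, beside 7.65% of all genes called lower. Against surface ectoderm it called 1 of 9, beside 2.48%. The mix of clusters in the neuron class differed between genotypes, and its part was not tested. Relative to placodal sensory neurons, the difference in otic cells was -1.996 for Gbx2, -1.81 for Dlx6, -1.47 for Lmx1a, -1.23 for Dlx5 and -1.23 for Hmx2, on the log2 scale. Relative to surface ectoderm it was -0.80 for Msx2. Of these, only Dlx6 and Lmx1a were also called on their own in the neurons, and Gbx2 and Hmx2 lost the call without cKO 2.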

How the results depend on the processing

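For the 9 genes in otic cells, 8 were called lower, and 5 to 8 were across all alternatives, with 5 only without doublet removal. Genes called lower in otic cells fell from 2969 to 1852 with DESeq2 and lay between 1929 and 2578 with 1 library left out. With 1 library left out, member calls in other classes lay between 2 and 8 higher (5 in all libraries) and 0 and 1 lower (0), calls lower within clusters between 2 and 5 (4), and negative split interactions between 6 and 13 (8). Whether equal replicate numbers pair the libraries is not known. Otic deviations of equal numbers correlated at r = 0.0309 over genes, a value that cannot decide it. With a replicate block, 1 member test in other classes was called lower (Msx1 in surface ectoderm, -0.46), and 8 members stayed lower in otic cells.

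Directions turned in these cases, and the cause was not tested. Gbx2 in otic cells was 0.0416 at resolution 2 and 0.18 under the stricter filter. Dlx3 was 0.12 without control 2 and 0.17 without cKO 2 (range -0.23 to 0.17). Gbx2 in cluster 4 ranged from -0.10 to 0.51 with a library left out. In surface ectoderm Msx1 ranged from -1.01 to 1.24, and in otic cells against it from -1.62 to 0.44, with -1.62 without control 1 and -0.34 without cKO 1. In the Gbx2 split Hmx3 ranged from -0.12 to 0.0708, with 0.0435 without control 1 and 0.0515 at 2 UMIs, and Hmx2 from -0.57 to 0.0855. In the Hmx2 split Gbx2 ranged from -0.93 to 0.15. Msx1 in the Hmx3 split was 0.20 at 2 UMIs, and Hmx2 in placodal neurons ranged from -0.0104 to 1.04. Lmx1a in the Msx2 split was -0.0545 at 2 UMIs. Sox2 in otic cells ranged from -0.18 to 0.22 and was -0.0072 without cKO 2, -0.0523 at resolution 2 and -0.0016 without doublet removal but with all otic clusters kept.

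With 2 libraries per group the spread is poorly known, and faint members such as Dlx3 are limited by their UMI counts.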
